A study of Homo sapiens with 18 samples.

Results

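MITF, its relatives TFEB, TFE3 and TFEC, and 5 transcription regulators of the melanocyte lineage (PAX3, LEF1, IRF4, TBX2 and PPARGC1A) were examined in melanoma cell lines overexpressing MAFG, a small MAF transcription factor. The 9 genes were picked by symbol from the 58870 genes of the RNA-seq count table. The rule itself used no measured value, but earlier results of these data were known when the genes were chosen. Each was present once in the table. Total RNA was sequenced from 3 human melanoma lines, WM164, SKMEL28 and A375, each carrying either a MAFG or a GFP transgene. The lentiviral vectors shared an EF1α promoter and blasticidin selection, so GFP cells had also been transduced and selected, and the MAFG protein carried a Myc-DDK tag. Each of the 6 conditions had 3 libraries. The sources used here do not say whether these came from separate cultures, so p-values measure only the spread between these libraries. Each line is a single isolate, and a difference between lines is a difference between these cultures. In bulk RNA, fewer cells of a kind and less RNA per cell cannot be told apart.

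MITF drives the genes of melanin synthesis and of melanocyte survival from E-box and M-box sequences, and its amount is linked to the differentiation state of melanoma cells. TFEB, TFE3 and TFEC bind as dimers to similar sequences, and TFEB and TFE3 are best known for switching on lysosomal and autophagy genes. PAX3 and LEF1 are known to act on the melanocyte promoter of MITF. IRF4 works with MITF at TYR, TBX2 is a repressor that lets cells pass senescence, and PPARGC1A is the coactivator of mitochondrial genes that MITF switches on in melanoma.

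In GRCh38, MITF lies at chr3:69739456-69968336 (plus strand), TFEB at chr6:41683978-41736259 (minus), TFE3 at chrX:49028726-49043410 (minus) and TFEC at chr7:115935148-116159896 (minus). PAX3 lies at chr2:222199887-222298998 (minus), LEF1 at chr4:108047545-108168956 (minus), IRF4 at chr6:391739-411443 (plus), TBX2 at chr17:61399843-61409466 (plus) and PPARGC1A at chr4:23755041-23904089 (minus). Each value below is the level of the whole gene, all transcripts together, so the MITF isoforms are not separated. Exons of TFEB, LEF1 and TBX2 overlap genes on the other strand (ENSG00000231102, LEF1-AS1 and ENSG00000267131), and the use of strand in counting is not given in the sources used here, so reads of the overlaps cannot be told apart.

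RefSeq start sites were found for 8 of the 9 members, in 14 windows of GRCh38.p14 that run from 250 bases before a start to 50 after it. TBX2 had none. The windows were searched on both strands for 6 motifs: the E-box CACGTG, the E-box core of the M-box CATGTG, the cAMP response element TGACGTCA, the LEF/TCF site CTTTGAT, the AP-1 site TGACTCA and TGCTGAC, the outer part of the MAF recognition element. The M-box core is an E-box variant, and no matched letters overlapped. Among 35116 RefSeq windows of the same length, 7.26% held CACGTG, 11.1% CATGTG, 1.85% TGACGTCA, 2.62% CTTTGAT, 4.95% TGACTCA and 4.19% TGCTGAC. Matches were found in 5 of the 14 windows, of 3 members. The share of all windows that hold at least 1 of the 6 motifs was not computed, so this count is only a description. Below are the 250 bases before the start of 4 of these 5 windows. They run 5′ to 3′ along the gene, with the motif in capitals. The first is the most upstream MITF start (chr3:69739214-69739463, plus strand), with TGCTGAC from base -225. The second is the melanocyte (M) promoter of MITF (chr3:69936342-69936591, plus strand), with the LEF/TCF letters from -204 and the cAMP response element from -152. The third is TFE3 (chrX:49043358-49043607, minus strand), with the AP-1 letters from -42, and the last is PPARGC1A (chr4:23881102-23881351, minus strand), with CATGTG from -129. The window not shown is the more upstream PPARGC1A start, which held the E-box CACGTG from -123.
MITF, upstream start: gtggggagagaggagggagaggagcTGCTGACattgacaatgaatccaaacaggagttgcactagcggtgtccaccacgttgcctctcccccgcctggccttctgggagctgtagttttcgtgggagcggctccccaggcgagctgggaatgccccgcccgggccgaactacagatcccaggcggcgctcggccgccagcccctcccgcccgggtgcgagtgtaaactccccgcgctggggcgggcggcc
MITF, M promoter: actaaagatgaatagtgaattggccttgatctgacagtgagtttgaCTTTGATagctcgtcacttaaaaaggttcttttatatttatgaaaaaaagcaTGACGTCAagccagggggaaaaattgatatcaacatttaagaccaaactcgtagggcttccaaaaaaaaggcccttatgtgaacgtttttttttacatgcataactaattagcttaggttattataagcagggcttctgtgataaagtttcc
TFE3: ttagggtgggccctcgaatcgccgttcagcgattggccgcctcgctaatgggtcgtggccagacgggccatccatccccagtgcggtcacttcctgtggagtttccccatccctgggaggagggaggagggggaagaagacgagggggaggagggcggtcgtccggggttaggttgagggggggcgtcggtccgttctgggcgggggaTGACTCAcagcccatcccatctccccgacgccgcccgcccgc
PPARGC1A: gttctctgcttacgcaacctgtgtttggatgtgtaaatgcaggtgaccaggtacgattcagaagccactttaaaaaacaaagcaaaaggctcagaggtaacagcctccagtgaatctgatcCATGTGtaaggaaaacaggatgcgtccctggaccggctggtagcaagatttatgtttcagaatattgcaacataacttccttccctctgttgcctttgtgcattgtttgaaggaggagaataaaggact
The M promoter was the one window of the 14 that held more than 1 motif. The windows of PAX3, LEF1, IRF4, TFEB and TFEC held none of the 6 motifs, which says only that these letters are not there.

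Library totals ranged from 20122172 to 39025042 counts, with a median of 31061375. Levels are CPM, counts scaled for depth with TMM factors from all 18 libraries, and levels of different genes are compared only in deposited TPM, which is per transcript length. A gene counted as changed at an adjusted p of at most 0.05 in the quasi-likelihood test of edgeR, adjusted by Benjamini and Hochberg's method over all genes tested, and every adjusted p below is from that test unless another is named. MAFG itself rose from 25.8 ± 2.91 to 53.0 ± 4.59 CPM (SD, n = 3 libraries) in WM164 cells (log2 fold change 1.04, SE 0.09, adjusted p = 6.37e-08, edgeR) and from 24.1 ± 3.46 to 37.3 ± 1.54 in SKMEL28 cells (0.64, SE 0.10, adjusted p = 0.000128, edgeR). In A375 cells it was at 27.0 ± 4.98 and 47.3 ± 9.23 CPM with no overlap of libraries, but the test did not pass (log2 fold change 0.80, SE 0.17, adjusted p = 0.0655, edgeR; 2.28e-06 to 0.252 under other settings and 0.0247 to 0.392 with 1 library left out). MAFG rose more in deposited TPM, from 2.89 to 24.5 in WM164, 3.96 to 17.0 in SKMEL28 and 4.22 to 25.2 in A375 (means). Over other settings its log2 fold change reached 3.05, 2.07 and 2.55 in the same order. The cause of this gap between CPM and TPM was not tested. MAFG and SIRT7 share exons on 1 strand, where reads cannot be told apart. A375_MAFG replicate 1 stood apart from replicates 2 and 3, with a mean chi-square per gene of 68.7 and 96.7, against 5.90 to 30.2 over the 16 other pairs of replicates. TFE3 in A375 is given with and without it. Ranges with 1 A375 library left out include the fit without it. Counts over the lists and over all genes within A375 are given only with it. Of 7 melanocyte and melanoma markers (TYR, MLANA, PMEL, SOX10, S100B, CSPG4 and PRAME), TYR and MLANA were at 0 in all A375 libraries, and the summed level of the 7 was 66.5 to 81.2 CPM in A375 GFP cells, 3666 to 3926 in WM164 and 3866 to 4144 in SKMEL28 GFP cells. A375 cells thus lacked defining markers of the melanocyte lineage.

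**Figure D1:**
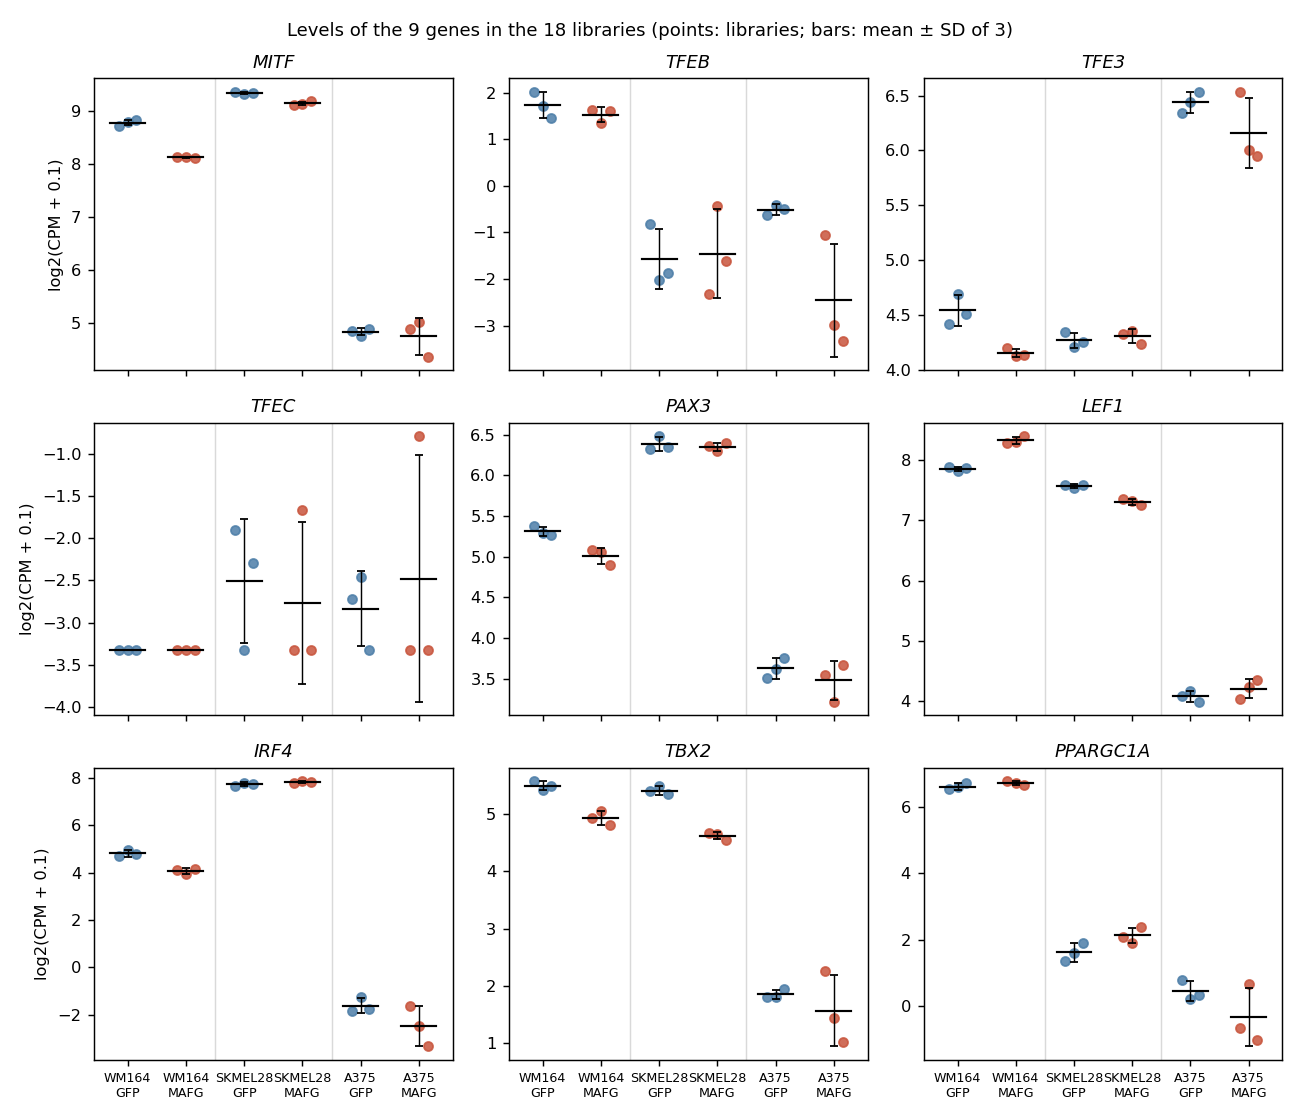
Level of each of the 9 genes as log2(CPM + 0.1), in each of the 18 libraries, with the mean and SD of the 3 libraries of a condition; each panel has its own vertical scale. In A375 cells MITF, PAX3, LEF1, IRF4, TBX2 and PPARGC1A are below both other lines and TFE3 is above them; in WM164 cells MITF, TFE3, PAX3, IRF4 and TBX2 move down and LEF1 up with MAFG.

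The GFP cells of the 3 lines carried very different amounts of these regulators. MITF was highest in SKMEL28 GFP cells, with 656, 639 and 649 CPM in the 3 libraries, lower in WM164 with 422, 440 and 454, and lowest in A375 with 28.9, 27.1 and 29.7. No library of 1 line reached the range of another. The level in A375 was 15.3-fold below WM164 (log2 difference -3.94, adjusted p = 2.98e-17, edgeR) and 22.7-fold below SKMEL28 (-4.50, adjusted p = 5.31e-18, edgeR), and WM164 was 1.48-fold below SKMEL28 (-0.56, adjusted p = 7.00e-05, edgeR). In deposited TPM, MITF ranked between 427 and 486 from the top of the 58870 genes in WM164 GFP libraries, between 259 and 284 in SKMEL28 and between 5309 and 5943 in A375.

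TFE3 had the reverse order. It stood at 80.8, 87.0 and 92.4 CPM in A375 GFP cells, 21.3, 25.8 and 22.7 in WM164 and 20.2, 18.4 and 19.0 in SKMEL28. A375 was above both lines in every library. The difference was 3.72-fold against WM164 (log2 1.90, adjusted p = 1.36e-11, edgeR) and 4.5-fold against SKMEL28 (log2 2.17, adjusted p = 2.05e-12, edgeR), while WM164 and SKMEL28 did not pass (log2 0.27, adjusted p = 0.0673, edgeR) and changed sign on the TPM scale. TFEB was low in all lines, at 3.26 ± 0.661 CPM in WM164, 0.604 ± 0.0530 in A375 and 0.262 ± 0.177 in SKMEL28 GFP cells (SD, n = 3). Its excess in WM164 passed against A375 (log2 difference of A375 to WM164 -2.43, adjusted p = 0.00260, edgeR). It also passed against SKMEL28 (adjusted p = 0.000278, edgeR). SKMEL28 GFP libraries had 14, 3 and 5 TFEB counts, near the floor of 3 counts, so no fold is given. Within SKMEL28 TFEB did not pass the count filter, and its counts in the other lines kept it in this test. TFEC, best known from macrophages, had 0 counts in the 6 WM164 libraries, 0 to 6 in SKMEL28 and 0 to 18 in A375. A count of 0 in WM164 allows up to 3 counts, or 0.0927 to 0.118 CPM, and TFEC was tested nowhere.

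**Figure D2:**
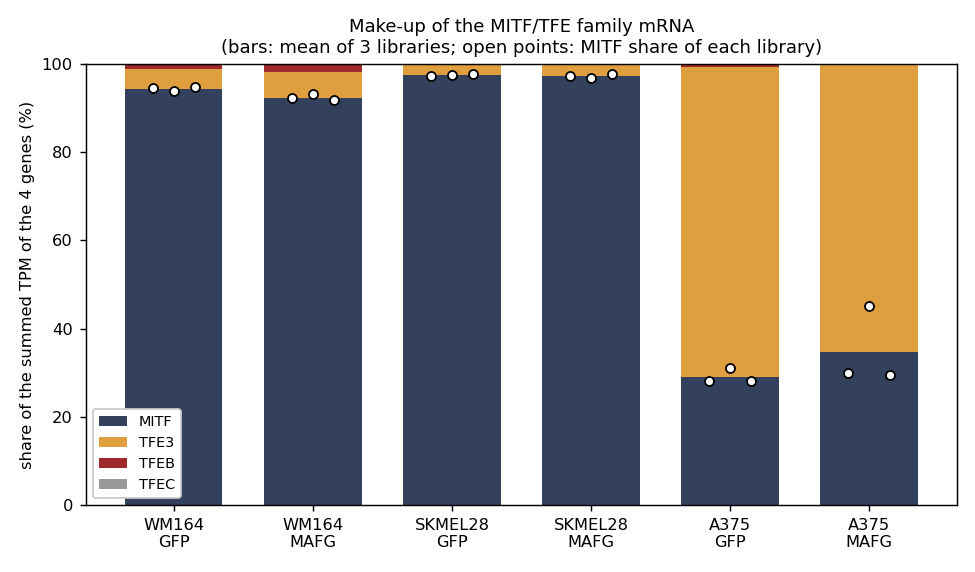
Share of MITF, TFE3, TFEB and TFEC in the summed TPM of the 4 genes, as the mean of 3 libraries per condition, with the MITF share of each library as open points. MITF makes up 91.7% or more of the sum in every WM164 and SKMEL28 library and 28.1 to 45.1% in A375, where TFE3 is the larger part.

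Per transcript length, the family mRNA was almost all MITF in 2 of the lines and mostly TFE3 in the third. MITF gave 93.7 to 94.8% of the summed TPM of the 4 genes in WM164 GFP libraries and 97.3 to 97.6% in SKMEL28, and TFE3 gave 4.27 to 4.88% and 2.38 to 2.64%. In A375 GFP libraries TFE3 gave 68.1 to 71.2% and MITF 28.1 to 31.1%, and the TPM of TFE3 was 2.19 to 2.53 times that of MITF. The sum itself was 29.6 to 33.7 TPM in A375, 83.9 to 108 in WM164 and 209 to 228 in SKMEL28 GFP libraries. With MAFG, the MITF share was 91.7 to 93.1% in WM164, below each GFP library, 96.8 to 97.6% in SKMEL28 and 29.5 to 45.1% in A375, where replicate 2 gave the highest value. These shares are a description and were not tested.

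The lineage factors were also lower in A375. LEF1, a nuclear partner of β-catenin, was at 231 ± 5.70 CPM in WM164, 190 ± 3.97 in SKMEL28 and 16.9 ± 1.06 in A375 GFP cells (SD, n = 3). PAX3, a paired-box activator of MITF, was at 39.6 ± 1.56, 83.4 ± 4.84 and 12.3 ± 1.11 CPM in the same order, and TBX2 at 45.1 ± 2.37, 42.5 ± 2.16 and 3.52 ± 0.209. TBX2 of WM164 and SKMEL28 overlapped and did not differ by the test (log2 0.09, adjusted p = 0.679, edgeR), although it was lower in WM164 on the TPM scale (-0.89, adjusted p = 0.00128, limma).

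IRF4 and PPARGC1A were each far higher in 1 line than in the others. IRF4, an interferon regulatory factor active in pigment cells, was at 200, 220 and 213 CPM in SKMEL28 GFP cells, 25.5, 30.8 and 27.4 in WM164, and 7 to 12 counts per library in A375. SKMEL28 was above WM164 in every library (log2 difference of WM164 to SKMEL28 -2.92, adjusted p = 7.83e-14, edgeR). PPARGC1A was at 91.9, 97.5 and 104 CPM in WM164, 2.43, 2.90 and 3.66 in SKMEL28 and 1.62, 1.06 and 1.14 in A375. WM164 stood above SKMEL28 by a log2 difference of 5.03 (adjusted p = 9.92e-14, edgeR) and above A375 by a wider margin (A375 to WM164 -6.26, adjusted p = 2.48e-15, edgeR).

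Against WM164, 8 members were tested and all 8 differed in A375, 1 higher and 7 lower, where 71.5% of all genes tested differed, 34.6% higher and 36.9% lower. Against SKMEL28, 7 of 8 differed, 1 higher and 6 lower, with 68.6% of all genes, 33.3% higher and 35.3% lower. Every one of these differences was over 2-fold, as were 46.7% and 43.8% of all genes. IRF4 had 7 to 12 counts per A375 GFP library and was not tested within A375. Its counts in the other lines kept it in these comparisons, so its folds rest on low counts. Between WM164 and SKMEL28, 3 members were higher in WM164 (TFEB, LEF1 and PPARGC1A) and 3 lower (MITF, PAX3 and IRF4), of 8 tested, with 56.8% of all genes called, 27.8% higher and 29% lower. Of these 6, 4 were over 2-fold, as were 28.7% of all genes, and the fold of TFEB rests on SKMEL28 counts near the floor. The excess of LEF1 in WM164 (log2 0.28, adjusted p = 0.00261, edgeR) reversed on the TPM scale. All 3 comparisons between lines share their GFP libraries.

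**Figure D3:**
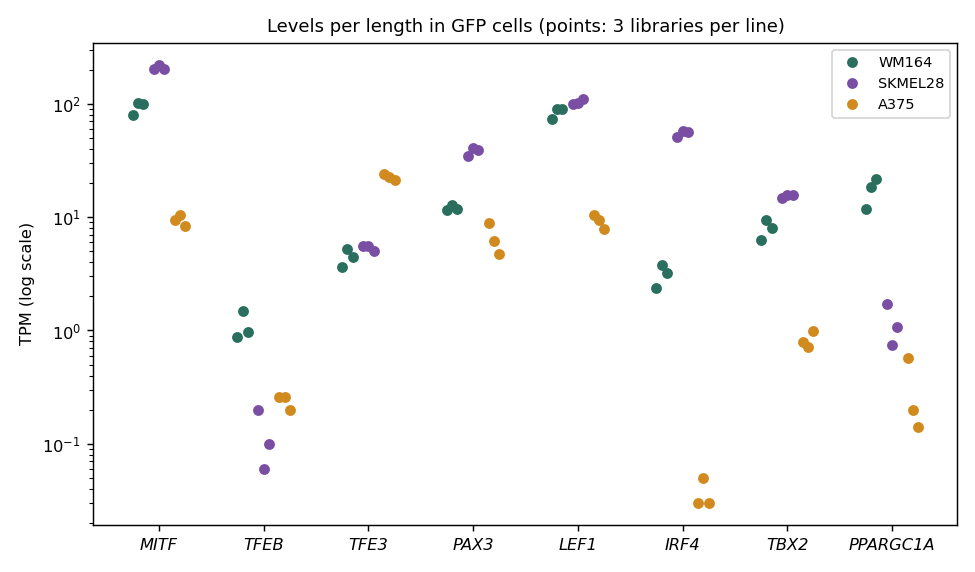
Deposited TPM of 8 members in the 3 GFP libraries of each line, on a log axis; TFEC is left out because it was at or near 0. MITF, LEF1 and TBX2 are lowest and TFE3 highest in A375, IRF4 is highest in SKMEL28 and PPARGC1A in WM164.

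MAFG overexpression lowered 5 members and raised 1 in WM164 cells, of 8 tested. The 6 were called where 31.8% of all genes were, 16.2% higher and 15.6% lower. Libraries of MAFG and GFP did not overlap for 6 of the 8, against 43.4% of all genes. None of the 6 changes was over 2-fold, a size that 6.94% of all genes passed. The median log2 fold change of the 8 was -0.35, against 0.00 over all genes. On log2(TPM + 1), where the median of all genes moved by 0.14, limma called MITF and LEF1, and TFE3, PAX3, IRF4 and TBX2 missed the threshold. The summed level of the 7 melanocyte markers was 2678 to 2796 CPM with MAFG in this line, below all its GFP libraries. TYR, MLANA and PMEL of that sum are also MITF targets, and its part in these changes was not tested.

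MITF was at 422, 440 and 454 CPM in WM164 GFP libraries and at 280, 281 and 277 in MAFG libraries. All 3 MAFG libraries lay below all 3 GFP libraries. It fell from 439 ± 16.1 to 279 ± 2.02 CPM (SD, n = 3), a log2 fold change of -0.65 (SE 0.05, adjusted p = 1.55e-08, edgeR), or 1.57-fold. Over the DESeq2, edgeR and limma settings the log2 fold change of MITF ran from -0.66 to -0.46. Its adjusted p reached 0.0691 over the same settings, so the call was not kept in all of them. TFE3 fell from 21.3, 25.8 and 22.7 to 18.3, 17.4 and 17.5 CPM, again with no overlap (log2 fold change -0.39, SE 0.09, adjusted p = 0.00265, edgeR). TFEB was at 3.26 ± 0.661 and 2.80 ± 0.317 CPM with overlapping libraries (log2 fold change -0.22, SE 0.23, adjusted p = 0.518, edgeR).

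Among the factors acting on the MITF promoter, PAX3 and LEF1 went opposite ways in WM164 cells. PAX3 fell from between 38.4 and 41.3 CPM in the GFP libraries to 33.6, 33.2 and 29.7 with MAFG (log2 fold change -0.30, SE 0.08, adjusted p = 0.00581, edgeR). LEF1 rose from 235, 224 and 233 to 310, 316 and 335 CPM (0.47, SE 0.05, adjusted p = 1.58e-06, edgeR). Neither set of libraries overlapped.

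IRF4 and TBX2 fell together in WM164 cells. IRF4 went from 25.5, 30.8 and 27.4 to 17.3, 15.2 and 17.4 CPM, a log2 fold change of -0.75 (SE 0.09, adjusted p = 6.63e-06, edgeR), the largest fall among the members there. TBX2 went from 47.6, 42.9 and 44.7 to 30.5, 33.1 and 27.9 CPM, a log2 fold change of -0.57 (SE 0.08, adjusted p = 2.65e-05, edgeR). In both genes the MAFG libraries lay wholly below the GFP libraries. PPARGC1A, which was most abundant in this line, stood at 97.9 ± 6.25 and 105 ± 4.54 CPM and did not pass (log2 fold change 0.10, SE 0.06, adjusted p = 0.244, edgeR).

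**Figure D4:**
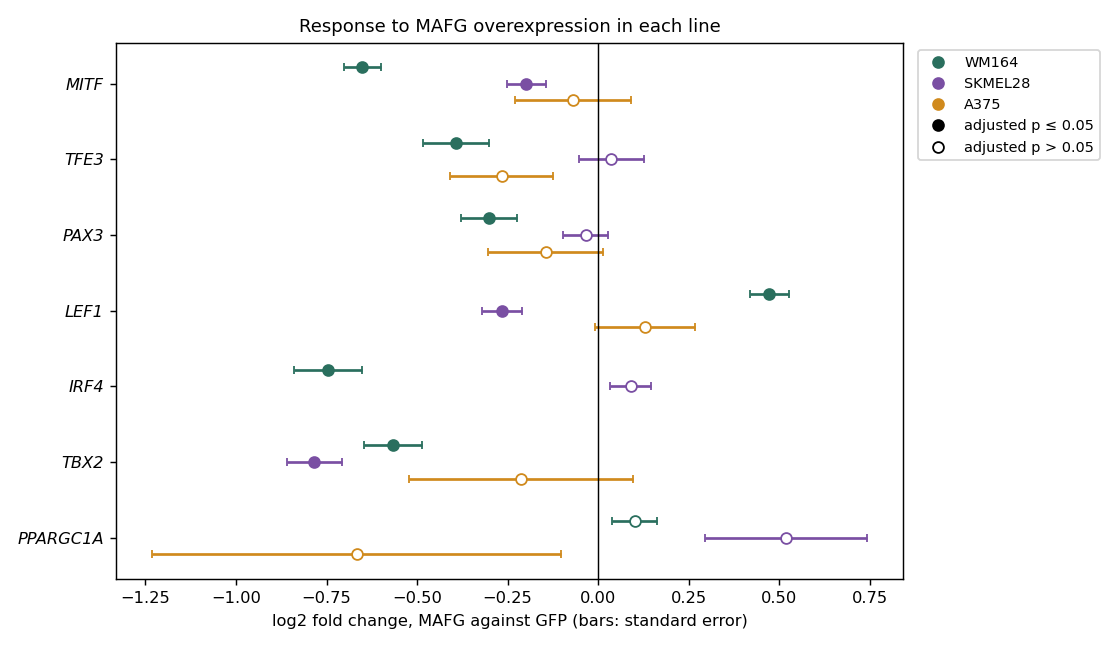
Log2 fold change of MAFG against GFP with its standard error for 7 members in each line (IRF4 was not tested in A375; TFEB and TFEC are left out for their low counts). Filled points passed an adjusted p of 0.05: 6 in WM164, 3 in SKMEL28 and none in A375; LEF1 lies right of 0 in WM164 and left of it in SKMEL28.

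In SKMEL28 cells MITF, LEF1 and TBX2 fell, while IRF4, PAX3 and TFE3 did not pass. Of 7 members tested, 3 were lower and none higher, where 29.9% of all genes were called with 14.6% higher and 15.3% lower. For 4 of the 7 the libraries did not overlap, against 43% of all genes, and no change was over 2-fold, against 4.74%. The median log2 fold change of the 7 was -0.03, against -0.01 over all genes.

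MITF went from 656, 639 and 649 to 553, 561 and 579 CPM in SKMEL28 cells, with no overlap (log2 fold change -0.20, SE 0.05, adjusted p = 0.00967, edgeR). The call was lost without SKMEL28_MAFG replicate 1 (adjusted p = 0.0536, edgeR) or replicate 2 (0.0525) and with all 18 libraries in 1 model (0.208, the highest over all settings, which began at 0.000132). LEF1 fell from 191, 185 and 193 to 163, 159 and 152 CPM (-0.27, SE 0.06, adjusted p = 0.00177, edgeR), opposite to WM164. With TPM libraries centred it was at -0.10 (adjusted p = 0.411, limma), and with no TPM filter it did not pass (adjusted p = 0.104, limma). TBX2 fell from 42.2, 44.8 and 40.5 to 25.3, 25.1 and 23.4 CPM, the largest change of any member called in any line (-0.78, SE 0.08, adjusted p = 1.51e-06, edgeR), and it missed the threshold under the same limma settings (adjusted p = 0.0644 and 0.112).

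IRF4 stood at 211 ± 10.3 and 224 ± 6.06 CPM in SKMEL28 cells (log2 fold change 0.09, SE 0.06, adjusted p = 0.263, edgeR), PAX3 at 83.4 ± 4.84 and 81.3 ± 2.68 (-0.03, SE 0.06, adjusted p = 0.718) and TFE3 at 19.2 ± 0.922 and 19.7 ± 0.859 (0.04, SE 0.09, adjusted p = 0.805). All 3 had overlapping libraries. The MAFG libraries of PPARGC1A, at 4.14, 3.66 and 5.10 CPM, lay above the GFP libraries at 2.43, 2.90 and 3.66, the closest pair by less than the last digit shown. The log2 fold change of 0.52 (SE 0.22) did not pass (adjusted p = 0.0943, edgeR). TFEB, at 3 to 18 counts per library, was not tested.

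In A375 cells none of 7 members tested passed, where 0.843% of all genes did, 0.78% higher and 0.0634% lower. A fold over 2 was passed by 0.665% of all genes. None of the 7 had an unadjusted p under 0.05 in edgeR, and DESeq2 called none. The libraries did not overlap for 1 of the 7, against 12.3% of all genes. That 1 was TFEB, at 15, 1 and 0 counts with MAFG, which was tested only because of its GFP libraries. The median log2 fold change of the 7 was -0.21, against 0.00 over all genes. MITF was at 28.9, 27.1 and 29.7 CPM with GFP and 29.4, 32.3 and 20.4 with MAFG (log2 fold change -0.07, SE 0.16, adjusted p = 0.997, edgeR), so the MAFG libraries spanned the GFP range on both sides.

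TFE3, the main family member of A375 cells, was at 80.8, 87.0 and 92.4 CPM with GFP and 92.2, 64.0 and 61.6 with MAFG. The replicate that stood apart was at the GFP level and the other two were below it. The log2 fold change was -0.27 (SE 0.14, adjusted p = 0.920, edgeR) with all libraries and -0.45 (adjusted p = 0.0201, edgeR) without A375_MAFG replicate 1, and over the 6 fits that leave out 1 library the adjusted p ran from 0.0201 to 1. TFEB had 21, 24 and 22 counts with GFP and 15, 1 and 0 with MAFG, and was tested only because of its GFP libraries (log2 fold change -2.17, SE 1.08, adjusted p = 0.879, edgeR). TBX2 was at 3.52 ± 0.209 and 3.08 ± 1.43 CPM, PAX3 at 12.3 ± 1.11 and 11.1 ± 1.76, LEF1 at 16.9 ± 1.06 and 18.4 ± 2.05 and PPARGC1A at 1.27 ± 0.300 and 0.803 ± 0.593 (SD, n = 3; adjusted p = 0.997 for each, edgeR). IRF4 had 0 to 9 counts with MAFG and was not tested.

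The response to MAFG differed between lines for LEF1, IRF4 and MITF. Tested as a difference of log2 fold changes over all 18 libraries, WM164 minus SKMEL28, LEF1 gave 0.74 (SE 0.10, adjusted p = 4.36e-05, edgeR), IRF4 -0.83 (SE 0.17, adjusted p = 0.00233, edgeR) and MITF -0.45 (SE 0.14, adjusted p = 0.0396, edgeR). These were 3 of 8 tested, 1 higher and 2 lower, where 13.7% of all genes were called, 7.39% higher and 6.32% lower. None was over 2-fold, against 5.1% of all genes. For MITF the call was lost in each fit that left out 1 library, with adjusted p from 0.0532 to 0.0958 (edgeR), and over other settings it ran from 3.87e-05 to 0.753. IRF4 missed the threshold on log2(TPM + 1) (-0.56, adjusted p = 0.0640, limma). WM164 minus A375 was called for MITF (-0.59, SE 0.15, adjusted p = 0.0132, edgeR), 1 of 8 tested with 9.21% of all genes (4.52% higher, 4.69% lower, 4.39% over 2-fold). It was lost with the replicate block (adjusted p = 0.0528, edgeR), with only the libraries compared (0.0504, edgeR) and on log2(TPM + 1) (0.413, or 0.115 centred, limma). SKMEL28 minus A375 was called for LEF1 (-0.40, SE 0.11, adjusted p = 0.0241, edgeR), 1 of 8 with 9.51% of all genes (3.68% higher, 5.83% lower, 4.2% over 2-fold). That LEF1 call was lost with no count filter (adjusted p = 0.0676, edgeR), where PPARGC1A was called (1.22), with the replicate block (0.0763), with only the libraries compared (0.0904) and on log2(TPM + 1) (0.478, or 0.323 centred, limma). It was also lost in edgeR without A375_GFP replicate 3, A375_MAFG replicate 3, SKMEL28_GFP replicate 1 or 3, or SKMEL28_MAFG replicate 3, with adjusted p up to 0.0656. The TBX2 responses of WM164 and SKMEL28 did not differ by the test (difference 0.22, 95% interval -0.23 to 0.67, adjusted p = 0.630, edgeR), and the interval still allows a difference in size. These differences share libraries with one another and with the comparisons within lines. The 8 members tested in each include IRF4, not tested within A375, and TFEB, not tested within SKMEL28. Their counts in other lines kept them in these tests.

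**Figure D5:**
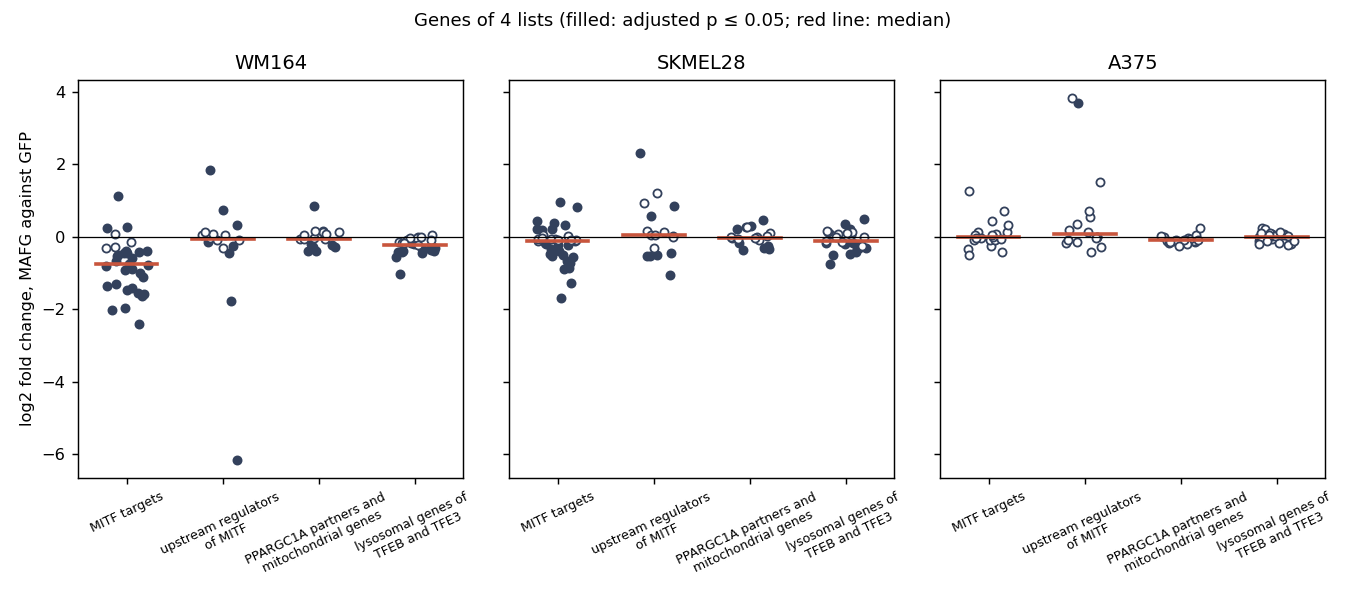
Log2 fold change of MAFG against GFP for genes tested in 4 lists: MITF targets, upstream regulators of MITF, mitochondrial genes with partners of PPARGC1A, and lysosomal and autophagy genes of TFEB and TFE3. Filled points passed an adjusted p of 0.05 and red lines are medians; the MITF targets of WM164 have the lowest median, -0.74, and A375 has 1 filled point over the 4 lists.

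Most genes downstream of MITF fell in WM164 cells. Of 33 MITF targets tested, 26 fell and 3 rose, where 15.6% of all genes fell and 16.2% rose, with a median log2 fold change of -0.74. MLANA, a melanosome antigen, fell from 332 ± 9.36 to 62.7 ± 1.82 CPM (log2 fold change -2.41, SE 0.06, adjusted p = 1.40e-15, edgeR). DCT, of the melanin pathway, fell from 1397 to 448 (-1.64) and GPR143, a melanosome receptor, fell from 43.6 ± 1.76 to 11.3 ± 0.909 (-1.95). The 3 that rose were CEACAM1, from 77.7 ± 1.87 to 170 ± 8.43 CPM (1.13), PLA1A (0.28) and GPNMB (0.23). MLANA, TYR and PMEL were also followed as MITF targets in the study of these cells, so the list's direction is not independent evidence.

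In SKMEL28 cells 16 of 35 targets fell and 8 rose, where 15.3% of all genes fell and 14.6% rose, with a median of -0.11. The difference between lines was not tested for the list. MET, the receptor of hepatocyte growth factor, fell from 65.5 ± 1.47 to 20.5 ± 0.469 CPM (log2 fold change -1.68, SE 0.07, adjusted p = 7.54e-11, edgeR), BCL2A1, an anti-apoptotic BCL2 relative, from 45.4 ± 2.17 to 18.8 ± 1.25 (-1.27), and IVNS1ABP from 254 ± 3.07 to 141 ± 10.3 (-0.85). GPM6B rose from 74.1 ± 5.67 to 144 ± 8.27 CPM (0.95), CAPN3 from 51.3 ± 6.24 to 91.2 ± 2.02 (0.82) and GPNMB from 837 ± 29.4 to 1085 ± 35.7 (0.37). MLANA, the target with the smallest adjusted p in WM164, was at a log2 fold change of 0.04 there (adjusted p = 0.711, edgeR). In A375 cells none of 20 targets tested passed in edgeR, and their median was -0.01. Of the 20, 1 had an unadjusted p under 0.05, and DESeq2 called 0.

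Regulators upstream of MITF moved both ways. In WM164 cells 3 of 16 rose and 5 fell, where 16.2% of all genes rose and 15.6% fell. GLI2, a Hedgehog effector known to oppose MITF, rose from 4.36 ± 0.650 to 15.5 ± 2.55 CPM (log2 fold change 1.84, SE 0.15, adjusted p = 2.12e-08, edgeR), ZEB1, a repressor linked to mesenchymal states, from 56.1 ± 4.19 to 94.3 ± 5.66 (0.75), and TCF7L2, a relative of LEF1, from 87.9 ± 4.53 to 110 ± 6.02 (0.33). SOX9 fell from 7.47 ± 1.18 to 0.0988 ± 0.0590 CPM, near the floor of 3 counts, where no fold is given (adjusted p = 1.25e-10, edgeR), ADCY2, an adenylyl cyclase, from 21.1 ± 4.53 to 6.25 ± 0.209 (-1.76) and CTNNB1, the β-catenin that LEF1 binds, from 441 ± 16.3 to 322 ± 11.4 (-0.46). SKMEL28 cells had 3 of 17 higher and 5 lower, where 14.6% and 15.3% of all genes were, with EDNRB (0.84), POU3F2 (0.58) and GLI2 (from 0.188 to 0.921 CPM, near the floor, with no fold given and the opposite sign on TPM with no filter) among those that rose and HIF1A (-0.51), CTNNB1 (-0.45) and FOXD3 (-1.05) among those that fell. GLI2 passed higher in both lines, and CTNNB1 and ADCY2 (-0.54 in SKMEL28) passed lower in both.

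SOX10, the neural crest factor that switches MITF on, rose in A375 cells. It went from 8.85 ± 2.34 to 114 ± 24.5 CPM there (log2 fold change 3.68, SE 0.21, adjusted p = 2.12e-05, edgeR), the 1 regulator of 16 that passed in edgeR (DESeq2 called 4), while MITF, PAX3 and LEF1 did not. SOX10 remained called in every alternative run, with log2 fold changes of 3.20 to 3.91. Even so, it stayed below the 1368 CPM of WM164 and 892 of SKMEL28 GFP cells, where its log2 fold changes were -0.04 and 0.03 and did not pass. The difference between lines in this response was not tested. SOX10 is 1 of the 7 melanocyte markers summed above, whose sum was 166 to 228 CPM in the A375 MAFG libraries. Of the others, CSPG4 was at 25.5 with GFP and 33.1 CPM with MAFG and PRAME at 39.8 and 40.6, while PMEL and S100B were under 1 CPM and TYR and MLANA at 0.

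Genes of the lysosome and of autophagy, the program of TFEB and TFE3, fell in part. In WM164 cells 15 of 26 fell and none rose (median -0.23), where 15.6% of all genes fell and 16.2% rose. In SKMEL28 cells 11 of 26 fell and 3 rose (median -0.12), where 15.3% of all genes fell and 14.6% rose. The protease CTSB fell in both, from 551 ± 23.3 to 412 ± 17.8 CPM in WM164 (log2 fold change -0.42, SE 0.05, adjusted p = 9.00e-06, edgeR) and from 642 to 381 in SKMEL28 (-0.75, SE 0.06, adjusted p = 1.03e-07, edgeR). The sialidase NEU1 (-0.57) also fell in WM164, and the autophagy receptor SQSTM1 (-0.41) in SKMEL28, where the protease TPP1 (0.49), GLA (0.37) and ATP6V1H (0.22) rose. None of 25 tested in A375 passed in edgeR, and their median was -0.02. Of the 25, 0 had an unadjusted p under 0.05, and DESeq2 called 0.

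Partners of PPARGC1A and mitochondrial genes showed no single direction. WM164 cells had 1 of 18 higher, the acyltransferase CPT1A of fatty acid oxidation (log2 fold change 0.85, adjusted p = 0.000119, edgeR), and 6 lower, where 16.2% and 15.6% of all genes were, among them the respiratory subunits COX5A (-0.39) and SDHA (-0.28) and the receptor PPARA (-0.39). PPARA and SDHA changed sign on the TPM scale. SKMEL28 cells had 4 higher and 5 lower of 18, where 14.6% and 15.3% of all genes were, with SOD2 (0.47), IDH3A (0.28) and TFAM (0.30) up and PPARGC1B (-0.36), CPT1A (-0.33) and UQCRC1 (-0.26) down, and A375 cells had none of 18 in edgeR. Of these 18, 1 had an unadjusted p under 0.05, and DESeq2 called 0.

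Among paralogs of the members, TBX3 moved against TBX2. This T-box repressor rose from 23.6 ± 2.43 to 49.4 ± 1.99 CPM in WM164 (log2 fold change 1.06, SE 0.08, adjusted p = 1.74e-08, edgeR) and from 12.9 ± 0.728 to 19.6 ± 2.51 in SKMEL28 (0.60, SE 0.11, adjusted p = 0.000697, edgeR), the lines in which TBX2 fell. In A375 it did not pass (-0.08, adjusted p = 0.997, edgeR). The LEF1 relatives TCF7 (0.76) and TCF7L2 (0.33) rose in WM164 as LEF1 did, while TCF7L1 rose in SKMEL28 (0.44). TCF7L1 fell in A375 (-0.86, adjusted p = 0.0216, edgeR, and 0.0104 to 0.156 with 1 library left out). Over the DESeq2, edgeR and limma settings its adjusted p reached 0.922 in A375 and 0.312 in SKMEL28. Over the same settings, that of TCF7 in WM164 reached 0.311 and that of TBX3 in SKMEL28 reached 0.332. Of 6 paralogs tested in each line, 3 rose in WM164, 2 rose and 1 fell in SKMEL28 and 1 fell in A375, where 31.8%, 29.9% and 0.843% of all genes were called.

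Of 15 markers of keratinocytes, blood and endothelial cells, 4 were tested in each line. In WM164 cells CD68, a lysosomal protein of macrophages that melanoma cells also express, fell from 129 ± 7.70 to 54.7 ± 3.25 CPM, and KRT10 fell (-0.61). KRT15 passed higher there, from 0.149 ± 0.129 to 0.824 ± 0.663 CPM, with its GFP level near the floor. Its adjusted p ran from 0.0210 to 0.224 with 1 library left out (edgeR). Over the DESeq2, edgeR and limma settings it reached 0.311, and that of KRT10 reached 0.526. In SKMEL28 cells CD68 fell from 357 ± 40.0 to 230 ± 3.22. None of the 4 passed in A375 by edgeR, where 0 had an unadjusted p under 0.05 and DESeq2 called 0. The summed level of the 15 was 135 to 153 CPM with GFP and 60.8 to 67.5 with MAFG in WM164, 340 to 423 and 259 to 266 in SKMEL28, and 97.2 to 126 and 112 to 125 in A375. KRT1, CLDN5 and CD3E were at 0 in every library. The part of these markers in the members' changes was not tested.

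Across the 18 libraries, the genes most like each member in log2 CPM were found by Pearson's r, which mostly reflects the difference between lines. TFEB was closest to BTG2, ANGEL1 and DPH1 (0.917 to 0.936) and TFE3 to AC011511.4, TRIP10 and KRTAP4-9 (0.989 to 0.992). MITF was closest to WDFY1, MLANA and GALM (r of 0.996 to 0.997), IRF4 to WIPI1 and TBC1D20 (0.995 to 0.996), LEF1 to CDKN2B, PTPRG and MYH10 (0.996 to 0.998), PAX3 to LINC00520, XKR8 and ATP6V0D2 (0.994 to 0.995), TBX2 to ST3GAL6, CTSB and RAI1 (0.989 to 0.993), and PPARGC1A to FOXO1, CIPC and PPFIA1 (0.981 to 0.987). With each line centred on its own mean, MITF was closest to BAHCC1 (0.928), LEF1 to ETV1 (0.940), TFE3 to CS, the citrate synthase (0.939), IRF4 to ZNRF2P2 (0.914), PAX3 to HSF4 (0.865) and TBX2 to ATP6V0A1, a subunit of the lysosomal proton pump (0.983). The 18 points share lines and depth, and these values are a description.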

How the data were processed

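Total RNA was sequenced from 18 libraries. The submitters' processing notes name cutadapt 1.8.1, STAR 2.7.7a, RSEM 1.3.0, DESeq2 and GRCh38, and the methods add featureCounts on uniquely aligned reads. The authors deposited whole-number counts per gene, not normalized, and TPM values rounded to 2 decimals. The labels name a kit without strand and the methods a strand-specific one, and the use of strand in counting is not given in the sources used here. All sample columns were assigned and 0 were unused. Positions came from GENCODE 44, which held 58517 of the 58870 identifiers.

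Counts were tested per line with R 4.3.3 and edgeR 4.0.16 (TMM, filterByExpr, quasi-likelihood F test, Benjamini-Hochberg adjustment over all genes tested). Differences between lines were contrasts in 1 model of 18 libraries. The SE is the absolute log2 value divided by the square root of F. Alternatives used DESeq2 1.42.0, limma 3.58.1 on deposited TPM with a pseudocount of 1 or 0.1 (genes reaching TPM 1 in 3 or more libraries), other filters (none, or at least 10 counts in every library), DESeq2's size factors, the replicate block and each library left out. Centring TPM libraries on their median was chosen after seeing the data. The tests were tested on simulated data. All members and MAFG are named. For each list and line up to 3 genes per direction with the smallest adjusted p are named, and for each member the 3 genes with the highest r, of which the first is given where each line is centred. SOX10 in WM164 and SKMEL28, MLANA in SKMEL28, TBX3 in A375, ADCY2 in SKMEL28 and single marker genes were named after their values were seen. Some genes that this rule names are not reported here. The members and lists were chosen with earlier results of these data known. Library totals set the counting precision, and the floor of 3 counts covers counting error only. Figures were drawn with matplotlib 3.10.9.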

Additional observations from a re-analysis of the deposited data

Results flagged for a closer look

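The response to MAFG differed between lines by a test of the difference itself for 5 values. LEF1 differed between WM164 and SKMEL28 cells by 0.74 on the log2 scale, where it rose in one and fell in the other (all 3 MAFG libraries above the GFP libraries in WM164 and all 3 below them in SKMEL28), and between SKMEL28 and A375 cells by -0.40. IRF4 differed between WM164 and SKMEL28 by -0.83, and MITF by -0.45. MITF differed between WM164 and A375 by -0.59. LEF1 between WM164 and SKMEL28 kept its call in every alternative run except where a fold over 2 was required, which ended all 5 calls. IRF4 lost it on log2(TPM + 1) (adjusted p = 0.0640, limma), MITF between WM164 and SKMEL28 in each edgeR fit with 1 library left out (adjusted p = 0.0532 to 0.0958), with the replicate block and on TPM, and MITF against A375 with the block, with only the libraries compared and on TPM. LEF1 between SKMEL28 and A375 lost its call with the block, with no count filter, with only the libraries compared, on TPM and in 5 of the 12 edgeR fits with 1 library left out.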

How the results depend on the processing

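Of the values of the members with 1 library left out, 524 of 564 kept direction and side of the threshold, 19 lost the call, 12 gained it and 9 reversed. Under the other alternatives these were 507 of 582, 36, 12 and 27, mostly on the TPM scale. For the other named genes, 310 of 336 values kept both with 1 library left out, 24 lost the call, 2 gained it and 0 reversed. Other alternatives gave 455 of 548, 79, 7 and 7 for these genes. CTSB, CTNNB1, ADCY2, COX5A and GPNMB in WM164 and TBX3 in SKMEL28 were among those that lost a call there. The 3 counts of members called in GFP cells moved by less than 1.5 times. Of 6 changed members in WM164 cells, limma called 2 on log2(TPM + 1) and 2 on log2(TPM + 0.1), 1 with no filter and 3 with libraries centred. In SKMEL28 cells, where MITF, LEF1 and TBX2 had changed, it called 1 with no filter. With libraries centred it called none of those 3 and 1 other member, IRF4, higher. With a fold over 2 required, 0 were called within WM164 or SKMEL28 and 0 in each difference of responses. In A375 cells the count was 0 to 1 with 1 library left out, TFE3 being the 1 without A375_MAFG replicate 1. WM164 and SKMEL28 gave 3 differences, 1 on TPM (LEF1) and 5 with only the libraries compared (PAX3 and TFE3 added). WM164 and A375 gave 2 by DESeq2 and with at least 10 counts in every library (LEF1 added), 2 with no count filter (PPARGC1A added), 0 on TPM and with only the libraries compared, and 1 to 2 with 1 library left out. SKMEL28 and A375 gave 2 with at least 10 counts (PPARGC1A added), 0 on TPM, centred or not, and with only the libraries compared, and 0 to 4 with 1 library left out, the 4 being LEF1, IRF4, TFE3 and TFEB without A375_MAFG replicate 1. In the A375_MAFG libraries left in that fit, IRF4 had 3 and 0 counts and TFEB 1 and 0, at or below the floor of 3 counts.

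With the replicate number as a block the differences of WM164 and of SKMEL28 against A375 gave 0 calls each. The other counts stayed within 1.5 times. With each condition centred on its mean, same-numbered MAFG and GFP libraries correlated at -0.033 to 0.012, so no variation shared by number was seen. Whether the libraries were handled as pairs was not tested.

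Reversed values on log2(TPM + 1), log2(TPM + 0.1) and with no filter were, in WM164, PPARA 0.073, 0.087 and 0.073, SDHA 0.0087, 0.0090 and 0.0087, and TFEB 0.17, 0.27 and 0.17 (0.0074 centred). In SKMEL28 they were TFE3 -0.17, -0.20 and -0.17, GLI2 -0.027 with no filter, and PAX3 0.15 centred and -0.063 to 0.0075 with 1 library left out. In A375 they were PAX3 0.039, 0.045 and 0.039 (0.14 centred), MITF 0.037 centred and -0.22 to 0.091 with 1 library left out, and TBX2 -0.61 to 0.024 with 1 left out. Among differences of responses on log2(TPM + 1), WM164 minus SKMEL28 reversed for PPARGC1A (0.087), TFE3 (0.10) and TFEB (0.15, and -1.20 to 0.52 with 1 library left out). WM164 minus A375 reversed for IRF4 (-0.55, -0.80 centred and called, and -0.16 to 1.79 with 1 left out), TFE3 (0.34, 0.098 centred, and -0.24 to 0.073), TBX2 (0.011, and -0.62 to 0.072) and PPARGC1A (-0.021 centred). SKMEL28 minus A375 reversed for PAX3 (-0.056, and -0.012 to 0.20 with 1 left out) and MITF (-0.31 to 0.0057). With 1 library left out, the reversals came without A375_MAFG replicate 1, 2 or 3, SKMEL28_GFP replicate 2 or SKMEL28_MAFG replicate 2. In GFP cells WM164 minus SKMEL28 reversed for LEF1 (-0.29), TFE3 (-0.23) and TBX2 (-0.89, -0.41 centred). The TPM scale moved the median of all genes by 0.14 for WM164, -0.14 for SKMEL28 and -0.10 for A375. The share of higher calls went from 50.9% to 81.2% in WM164 and from 48.8% to 18.3% in SKMEL28, and was 50.2% and 55.4% with libraries centred. The cause of these changes was not tested. Depth limited TFEC, TFEB in SKMEL28 and IRF4 in A375, which had 18 counts or fewer per library.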
